A study of Mus musculus with 47 samples.

Results

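Deciles 2 to 4 of a list of CLK:BMAL1 ChIP-seq peaks in mouse liver were examined for nucleosome signal by MNase-seq. They were taken by place in the list, as rows 323 to 1288 in its deposited order, and hold 966 of 3217 peaks. The deposited signal table gives 1 averaged profile for each decile, so the members were measured as the sets of decile 2, decile 3 and decile 4 and as the plain mean of these 3 sets in each library. The sizes that rebuild the profile of all peaks from those of the 10 deciles were 321, 322 and 321 peaks for deciles 2, 3 and 4, although the set names give 322 for each. The sets thus average 964 peaks. If they follow the order of the list, at most 2 listed members stand outside them or in a neighbouring set. Which peaks a set holds could not be checked. What ranked the list is not stated in the sources used here.

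Livers came from adult C57BL/6 mice of 3 to 6 months held in 12 h light and 12 h dark for at least 2 weeks. The Bmal1-/- group, whose allele the labels do not describe further, had 23 mice, 4 at each of ZT02, ZT06, ZT10, ZT14 and ZT18 and 3 at ZT22 (zeitgeber time, hours after lights on). The wild-type group had 24 mice, 4 at each of the same 6 times. Livers of both genotypes were crosslinked with 1% formaldehyde for 10 min, and nuclei were digested for 15 min before DNA of about 150 nt was sequenced. Each library was 1 mouse, and mice with the same replicate number at different times are called a series below (Bmal1-/- 5, 8, 9 and 10, wild type 11, 12, 26 and 27).

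CLK (CLOCK) and BMAL1 form the heterodimer at the head of the circadian clock, which binds E-box motifs and activates the Per and Cry genes, whose proteins then inhibit it. Neither partner binds these sites well alone, so a liver without BMAL1 lacks the working dimer, and in wild-type mouse liver binding is strongest in the light. Micrococcal nuclease cuts the DNA between nucleosomes, so low signal at a site marks DNA that is covered by nucleosomes in fewer cells or is digested more readily. Each value is a mean over the cells of a liver and over the peaks of a set, and a small change at many sites or cells cannot be told apart from a large change at a few.

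By the classes in the deposited list, 418 members (43.3%) lay in introns, 63 (6.52%) elsewhere in gene bodies and 18.01% at transcription start sites (TSS). Another 99 (10.2%) were intergenic within 10 kb of a gene and 21.9% were intergenic beyond 10 kb. The other 2251 peaks held close to the same shares, with 44.2% in introns, 6.57% elsewhere in gene bodies, 18.2% at TSS, 8.66% intergenic within 10 kb and 22.4% beyond. Within the members the intronic share was 45.7% in decile 2, 44.1% in decile 3 and 40.1% in decile 4, while the share beyond 10 kb was 20.2%, 21.4% and 24.2% in the same order. The members lay on 20 chromosomes.

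Members were 180 to 660 bp wide, with a median of 340 bp (quartiles 290 and 410 bp). Median width was 350 bp in decile 2, 340 bp in decile 3 and 330 bp in decile 4, against 400 bp in decile 1 and 250 bp in deciles 8 to 10, with deciles 5 to 7 between (quartiles 260 and 360 bp). Across the members Spearman's rho of row number and width was -0.11, a shallower decline than the -0.52 across all 3217 rows. Of the members, 56 (5.80%) were wider than 500 bp, compared with 16.1% of decile 1 and 0.104% of deciles 8 to 10. TSS members had a median width of 330 bp, intronic members 340 bp and gene body members outside introns 360 bp. Intergenic members had 350 bp within 10 kb of a gene and 345.5 bp beyond.

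Peaks just inside and just outside the members were 330 to 470 bp wide. The first member was an intronic peak of 340 bp on chromosome 2, from 6039431 to 6039770 (mm9, as are all positions here), and the row before it was a gene body peak of 351 bp on chromosome 5, from 138696761 to 138697111. The last member was a TSS peak of 330 bp on chromosome 13, from 113450611 to 113450940, and the row after it a TSS peak of 470 bp on chromosome 19, from 8955331 to 8955800. The widest member, of 660 bp, lay on chromosome 7 from 29167111 to 29167770, intergenic within 10 kb of a gene. Of the 3 narrowest members, of 180 bp each, the first in the list was a TSS peak on chromosome 10, from 80755491 to 80755670.

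Windows of members met other peaks about as often as those of the rest of the list. The 3 kb windows of 18.8% of the members overlapped that of any other listed peak, and those of 67 (6.94%) overlapped that of another member. The share was 19.9% for the rest of the list and 28.6% for decile 1. The median distance from a member to the nearest listed peak was 42.7 kb, against 18.99 kb in decile 1 and 44.4 kb in deciles 5 to 7.

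**Figure D1:**
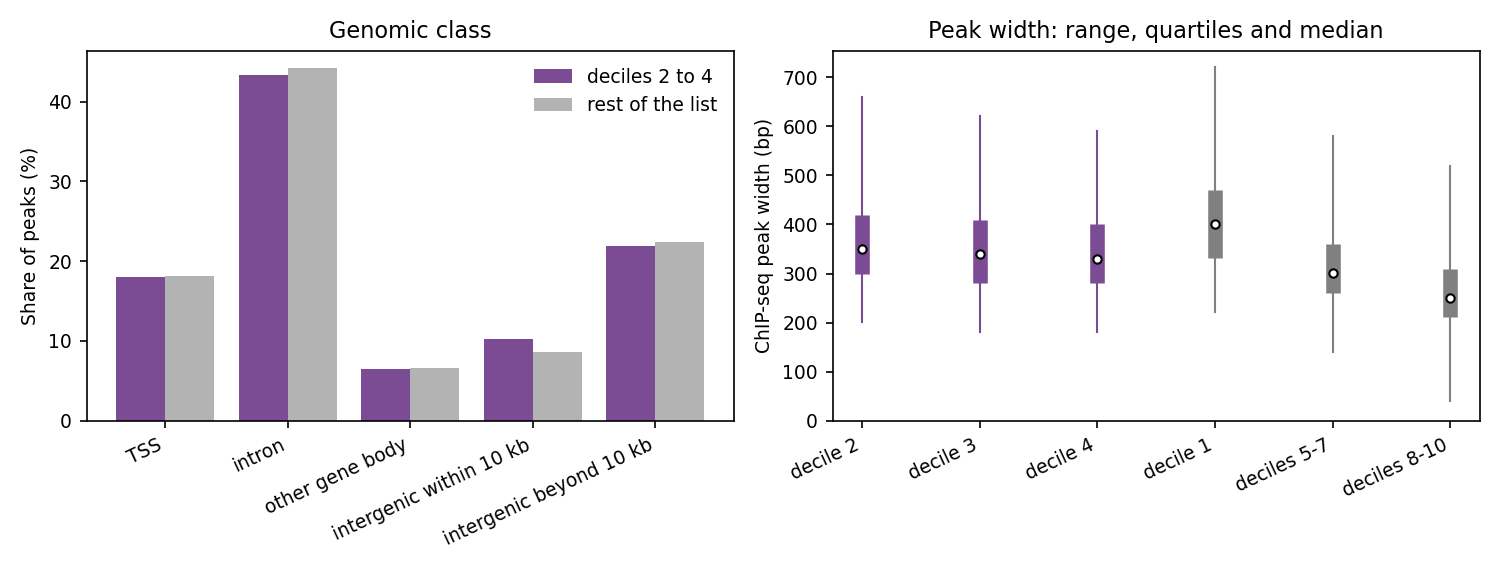
Share of peaks in each genomic class (left, % of peaks) for deciles 2 to 4 and for the rest of the list, and ChIP-seq peak width (right, bp) by stretch of the list, where thin lines span the range, thick bars the quartiles and circles mark the median. Class shares lie close together, with 18.01% TSS peaks among the members and 18.2% in the rest, while the median width falls from 350 bp in decile 2 to 330 bp in decile 4 and lies between those of decile 1 and of deciles 5 to 7.

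In a library, 7296 to 13944 fragments covered a central position of the 3 sets together, which gives a counting error of 0.847% to 1.17% (counting alone, since fragments that share a PCR origin cannot be recognised). Relative depth, with the shallowest library at 1, was 1.36 ± 0.229 in Bmal1-/- and 1.52 ± 0.299 in wild-type libraries (SD over mice, n = 23 and 24), and its part in the results was not tested. The deposited signal is coverage as scaled by the authors, and 300 values 10 bp apart make a profile. Central signal averages the positions up to 150 bp from the window middle, flank signal those beyond 1000 bp on both sides, and relative central signal is the first in percent of the second. Differences are in percentage points. BMAL1 transcript or protein was not measured by this assay, so the knockout itself was not checked here.

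Both genotypes had a single trough of MNase signal over the middle of the members, and it was shallower in Bmal1-/- livers. In the mean of the 3 sets the lowest point lay 15 bp left of the window middle in both genotypes (at -15 bp), at 75.4% of the flank in Bmal1-/- and 63.2% in wild type. The trough was 290 bp wide at mid-depth in Bmal1-/-, from -150 to 140 bp, and 300 bp wide in wild type, from -160 to 140 bp. Series ranged from 250 to 350 bp in Bmal1-/- and from 260 to 340 bp in wild type, so the widths of the genotypes overlapped while the depths did not. The lowest point of single series was 76.3%, 68.8%, 78.2% and 77.9% in Bmal1-/- replicates 5, 8, 9 and 10, against 65.5%, 65.7%, 61.6% and 59.6% in wild-type replicates 11, 12, 26 and 27.

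The 3 deciles differed in the signal beside the trough. From 150 to 450 bp out, decile 2 had less signal on the left than on the right, 91.1% and 97.5% of the flank in Bmal1-/- and 88.9% and 94.2% in wild type, with this order in every series of both genotypes. Decile 3 had the opposite order, 102.7% on the left and 96.5% on the right in Bmal1-/- and 100.3% and 91.7% in wild type, again in all 4 series of each genotype. In decile 4 the sides were closer, at 96.6% and 94.9% in Bmal1-/- and 91.2% and 92.2% in wild type. All series cover the same windows, so their agreement does not repeat the order of the sides at new sites. The sides were not compared in the other deciles. Whether the windows were turned by strand is not known here, so left and right name only the columns of the deposited table. The lowest point was 73.1% in Bmal1-/- and 61.4% in wild type for decile 2, 77.2% and 64.2% for decile 3, and 74.9% and 62.9% for decile 4. Widths at mid-depth were 280 to 300 bp in all of these.

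**Figure D2:**
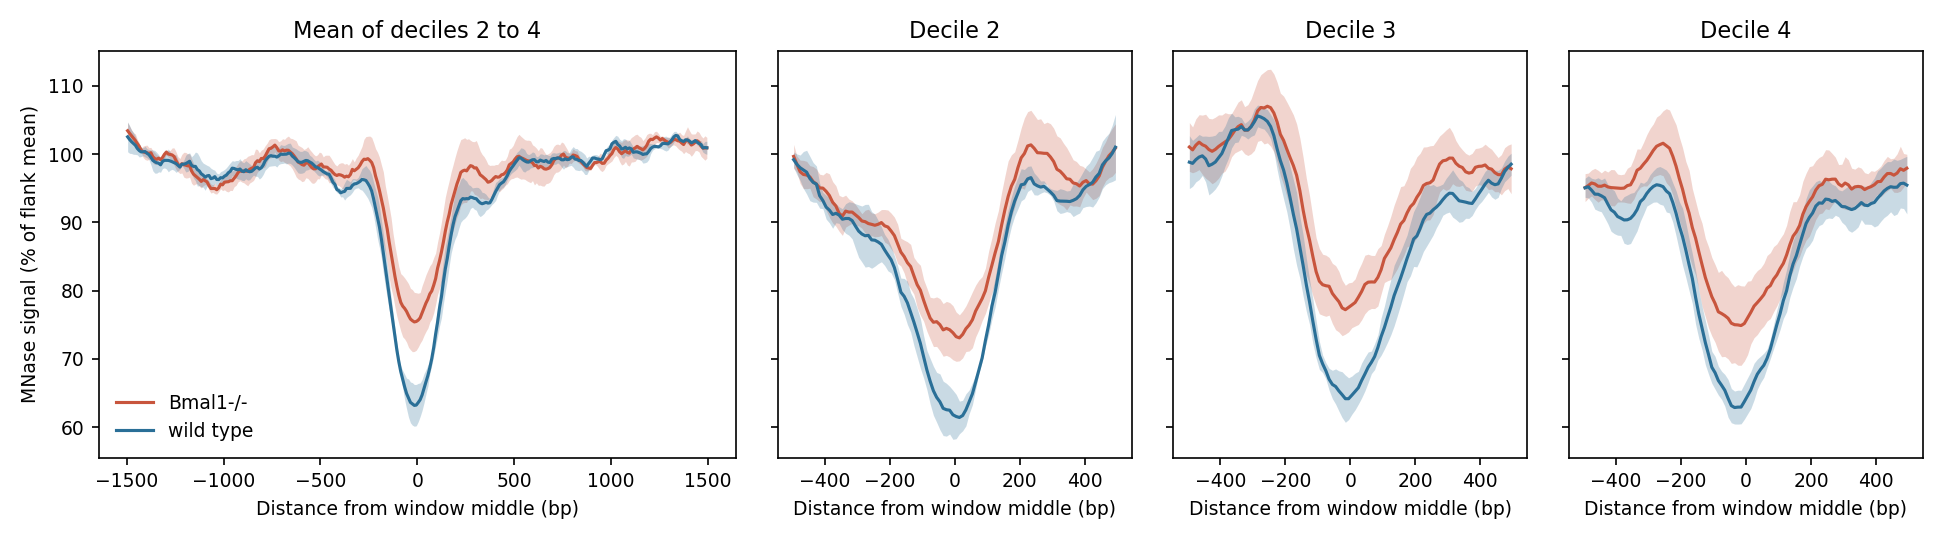
MNase signal in percent of the flank mean (y axis) by distance from the window middle in bp (x axis), for the mean of deciles 2 to 4 over the 3 kb window and for each decile within 500 bp. Lines are means of 4 series and bands 1 SD for Bmal1-/- (red) and wild type (blue), and the trough bottoms at 75.4% in Bmal1-/- and 63.2% in wild type in the mean of the 3 sets, with the left side lower in decile 2 and higher in decile 3.

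The first comparison, whether the centre of these sites holds a different level of nucleosome signal without BMAL1, was made between series. Mean relative central signal of the 3 sets was 79.2%, 74.6%, 83.9% and 82.5% in Bmal1-/- replicates 5, 8, 9 and 10, against 70.7%, 70.03%, 70.6% and 69.01% in wild-type replicates 11, 12, 26 and 27. Every Bmal1-/- series lay above every wild-type series, and replicate 8 lay nearest to wild type. No replicate number is shared by the genotypes, so any difference in handling between their series cannot be told apart from genotype. The means were 80.05% ± 4.15 in Bmal1-/- and 70.09% ± 0.779 in wild type (SD, n = 4 series each). The difference of 9.96 percentage points gave an exact two-sided permutation p of 0.0286, the smallest that 70 assignments allow (Benjamini-Hochberg adjusted p = 0.0348 over 28 overlapping peak sets). Without 1 of the wild-type series at a time the difference was 9.61 to 10.2 points with an exact p of 0.0571. The genotypes stayed apart in each case, and with groups of unequal size another assignment gave as large a difference.

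Single libraries overlapped. In Bmal1-/- the lowest library stood at 69.9%, the median at 78.98% and the highest at 89.1%, against 62.6%, 69.9% and 77.7% in wild type. Of 23 Bmal1-/- libraries, 14 were above the highest wild-type library, and 12 of 24 wild-type libraries were below the lowest Bmal1-/- one. Within a time and genotype the SD between mice was 5.38 points in Bmal1-/- and 2.72 points in wild type.

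Each of the 3 deciles passed the same test, beside 82.1% of the 28 sets, so calls in 3 of 3 deciles stand near the share over all sets. Decile 2 had 78.3%, 73.9%, 82.1% and 79.2% in the Bmal1-/- series (mean 78.4% ± 3.40) and 71.4%, 69.7%, 69.3% and 66.8% in the wild-type series (mean 69.3% ± 1.89, SD over 4 series), a difference of 9.11 points. In decile 3 the Bmal1-/- series stood at 80.1%, 77.3%, 85.9% and 85.5% (mean 82.2% ± 4.20) and the wild-type series at 71.8%, 69.7%, 71.8% and 70.6% (mean 70.96% ± 1.01), 11.2 points apart. Decile 4 gave 79.1%, 72.6%, 83.9% and 83.02% in Bmal1-/- (mean 79.7% ± 5.14) and 69.05%, 70.7%, 70.8% and 69.8% in wild type (mean 70.07% ± 0.823), 9.58 points apart. In each decile the exact permutation p was 0.0286 (adjusted p = 0.0348), and no Bmal1-/- series reached down to a wild-type one. An exact p of 0.0571 was given without any 1 wild-type series in decile 2 (8.28 to 9.80 points) and decile 4 (9.24 to 9.83), and in decile 3 without wild-type replicate 12 (10.8) or 27 (11.1). The genotypes stayed apart in these too.

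On the scale as the authors deposited it, the members' central signal was 5.56, 4.72, 5.48 and 5.41 in the Bmal1-/- series and 4.92, 4.74, 4.75 and 4.52 in the wild-type series. Here replicate 8 lay within the wild-type values. The difference of 0.564 signal units had the same direction and missed the threshold (exact permutation p = 0.114), and without Bmal1-/- replicate 8 it was 0.755 with p = 0.0286. Flank signal was 6.61 ± 0.293 in Bmal1-/- and 6.74 ± 0.167 in wild type (SD, n = 4 series each), a difference of -0.137 (exact permutation p = 0.486). Averaged over all 300 positions the signal differed by -0.0175 (exact permutation p = 0.8286).

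The width of the genotype difference was read position by position with limma on the means of the 8 series, on the log2 of signal over flank and with all 3000 positions of the 10 deciles adjusted together. Of the 9000 bp in the windows of deciles 2 to 4, 590 bp were higher in Bmal1-/- and 0 bp lower at an adjusted p under 0.05 (1590 bp in either direction at an unadjusted p under 0.05). Of all positions tested, 4.3% were called higher. The called width was 180 bp in decile 2, from -90 to 90 bp, 220 bp in decile 3, from -110 to 110 bp, and 190 bp in decile 4, from -110 to 80 bp. All of it lay within 150 bp of the middle. The largest log2 difference was 0.26 at -5 bp in decile 2 (adjusted p = 0.00488), 0.28 at -5 bp in decile 3 (adjusted p = 0.00341) and 0.25 at -35 bp in decile 4 (adjusted p = 0.00739). Without division by the flank the limma width was 0 bp, beside 740 bp with p under 0.05 before adjustment. Leaving out 1 series moved the width by over 1.5 times without Bmal1-/- replicate 5 (290 bp), 8 (1300 bp) or 10 (260 bp) and without wild-type replicate 12 (390 bp), 26 (380 bp) or 27 (180 bp).

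By time of day, relative central signal of the members was higher in Bmal1-/- at 4 of 6 times after adjustment over the times. At ZT02 the Bmal1-/- mice of replicates 5, 8, 9 and 10 had 82.2%, 76.6%, 88.9% and 85.3%, against 71.6%, 71.8%, 67.97% and 68.3% in the wild-type mice of replicates 11, 12, 26 and 27. At ZT06 the values were 74.3%, 73.5%, 85.9% and 82.9% in Bmal1-/-, against 65.9%, 62.6%, 63.5% and 65.7% in wild type. At ZT10 they were 77.1%, 74.5%, 78.9% and 76.6% in Bmal1-/-, against 66.9%, 68.2%, 67.8% and 64.9% in wild type. No mouse of one genotype reached the other at any of these times, and at ZT10 the Bmal1-/- mice lay closest together.

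At ZT14 the Bmal1-/- mice had 77.6%, 78.4%, 89.1% and 84.8%, against 71.9%, 67.9%, 77.7% and 69.5% in wild type. At ZT18 they had 76.6%, 69.9%, 81.5% and 86.7%, against 70.7%, 75.7%, 76.5% and 71.1% in wild type. At ZT22 replicates 5, 9 and 10 had 87.2%, 79.3% and 78.98%, against 77.2%, 74.1%, 70.2% and 74.6% in wild type. The genotypes overlapped at ZT14 by the wild-type mouse 26 alone. At ZT18 they overlapped by the Bmal1-/- mouse of replicate 8 alone, which lay below all wild-type mice. They were apart at ZT22, where Bmal1-/- replicate 8, the lowest series, has no library.

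The difference was 13.4 points at ZT02, 14.7 points at ZT06, 9.81 points at ZT10 and 7.79 points at ZT22, each with an exact permutation p of 0.0286 (adjusted p = 0.0429). It was 10.7 points at ZT14 (exact permutation p = 0.0571, adjusted p = 0.0686) and 5.20 at ZT18 (exact permutation p = 0.286). With 1 mouse fewer the ZT22 test cannot reach 0.05 (smallest exact p 0.0667 with 2 Bmal1-/- mice and 0.1 with 3 wild-type mice), and the difference ran from 5.09 to 9.21 points. Without any 1 wild-type mouse the ZT02 test gave 12.7 to 13.98 points and an exact p of 0.0571, past the threshold no longer. The genotypes stayed apart there, and with groups of unequal size another assignment gave as large a difference. At ZT18 the difference was 8.12 points without Bmal1-/- replicate 8, with an exact p of 0.0286, and at ZT14 it was 12.7 points without wild-type replicate 26, again with an exact p of 0.0286.

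The deciles shared a small difference at ZT18 but varied in the times at which the genotypes were apart. At ZT02 the genotypes overlapped in decile 2 and were apart in deciles 3 and 4. All Bmal1-/- mice were above all wild-type mice at 3 of 6 times in decile 2, at 4 in decile 3 and at 3 in decile 4, and at ZT06 in all of them. In decile 1 the genotypes were apart at ZT02, ZT06, ZT10, ZT14 and ZT22, so such separation was not particular to the members. In the mean of deciles 5 to 7 they were apart at ZT02, ZT06, ZT10 and ZT14, and in that of deciles 8 to 10 at ZT10 alone. Other sets were not compared by time. Decile 2 had its largest difference at ZT06, of 16.2 points, with 78.3% ± 7.88 in Bmal1-/- and 62.1% ± 2.85 in wild type. Decile 3 also differed most at ZT06, by 15.3 points, with 79.7% ± 5.29 in Bmal1-/- and 64.4% ± 1.97 in wild type. Decile 4 differed most at ZT02, by 16.4 points, with 84.1% ± 5.76 in Bmal1-/- and 67.7% ± 0.507 in wild type (SD, n = 4 mice per group throughout). At ZT18 the differences of deciles 2, 3 and 4 were 3.74, 7.47 and 4.57 points, the smallest of the 6 times in each. Single deciles at single times were not tested.

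**Figure D3:**
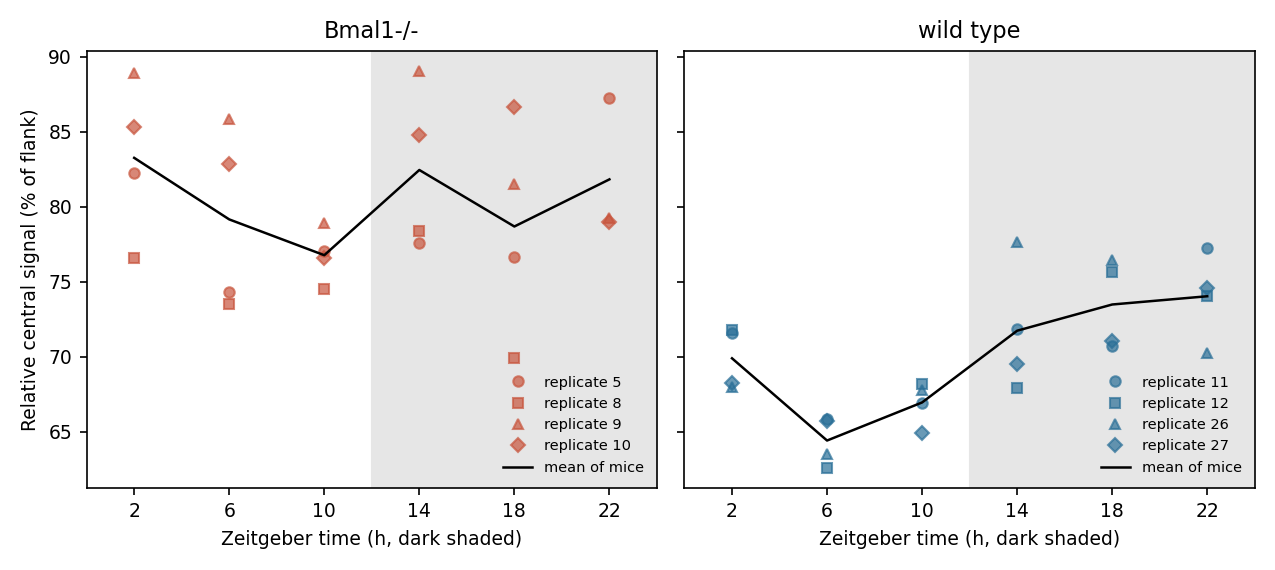
Relative central signal of the mean of deciles 2 to 4 (y axis, % of flank) in each mouse by zeitgeber time (x axis, h), with Bmal1-/- on the left, wild type on the right and the dark phase shaded; symbols mark replicate numbers and the line the mean of mice. Wild-type means are lowest at ZT06 (64.4%) and highest at ZT22 (74.03%), while Bmal1-/- means stay between 76.8% and 83.3% with a wider scatter of mice.

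The next comparison asked whether the level at the members changes between the 3 light times (ZT02, ZT06 and ZT10) and the 3 dark times (ZT14, ZT18 and ZT22). In wild-type livers the centre was lower in the light. Light libraries stood at 62.6%, 67.4% and 71.8% (lowest, median and highest of 12), against 67.9%, 72.97% and 77.7% for the 12 dark libraries, so the ranges overlapped while the medians were apart. Light mice averaged 67.1% ± 2.81 and dark mice 73.1% ± 3.28 (SD, 12 mice in each), -5.99 points apart (two-sided permutation p = 5e-05, adjusted p = 0.00035 over 28 sets). All 4 wild-type series had the same sign, with -5.16, -5.04, -8.35 and -5.42 points in replicates 11, 12, 26 and 27.

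Wild-type light minus dark was -6.27 points in decile 2 (permutation p = 0.0025, adjusted p = 0.00412), -5.20 in decile 3 (permutation p = 0.00362, adjusted p = 0.00519) and -6.45 in decile 4 (permutation p = 1e-05, the smallest that the resamples allow, adjusted p = 0.00014). In each of these sets 4 of 4 series were lower in the light. Of all 28 sets, 89.3% were called lower in the light, so the calls in 3 of 3 deciles stand near the share of the whole table. Decile 4 had light libraries from 60.6% to 72.003% and dark libraries from 70.1% to 77.8%, and decile 3 had 61.9% to 72.8% in the light and 65.2% to 82.01% in the dark.

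A 24 h harmonic fitted to the wild-type mice had an amplitude of 4.75 ± 0.770 points (SE, n = 24 mice; permutation p = 3e-05) and its minimum at ZT 7.24 ± 0.619 h. The amplitude was 5.58 ± 1.05 points in decile 2, 4.37 ± 1.04 in decile 3 and 4.37 ± 0.879 in decile 4, with minima at ZT 7.77 ± 0.719, 7.04 ± 0.913 and 6.75 ± 0.769 h in that order (SE, n = 24 mice). The standard errors of these 3 minima overlapped. The lowest point of the wild-type profile was 61.9%, 55.6%, 59.6%, 65.9%, 67.4% and 68.3% of the flank at the 6 times in order, at -25 to -5 bp, and the width at mid-depth stayed between 280 and 310 bp.

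In Bmal1-/- livers the light and dark values of the members lay over the same range. Light libraries of the members stood at 73.5%, 77.99% and 88.9% (lowest, median and highest of 12), against 69.9%, 79.3% and 89.1% for the 11 dark libraries. The means were 79.7% ± 5.15 and 80.9% ± 5.64 (SD over 12 light and 11 dark mice), a difference of -1.18 points (permutation p = 0.601), and 2 of 4 series were lower in the light. Deciles 2, 3 and 4 gave -0.504, -2.46 and -0.665 points (permutation p = 0.823, 0.350 and 0.804), and 0% of the 28 sets were called. The 24 h amplitude was 1.804 ± 1.63 points (SE, n = 23 mice; permutation p = 0.533). The dark means lack replicate 8 at ZT22.

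The difference between the genotypes in light minus dark was tested over series. It was -2.60, 0.738, 1.28 and -1.89 points in Bmal1-/- replicates 5, 8, 9 and 10 (mean -0.617 ± 1.91), against the 4 wild-type values above (mean -5.99 ± 1.58, SD over 4 series). No Bmal1-/- series reached the wild-type values. The genotypes differed by 5.38 points, Bmal1-/- minus wild type (exact permutation p = 0.0286), which missed the threshold once adjusted for 28 sets (adjusted p = 0.0571; 50% of the sets shared the unadjusted call). The value was 6.17 points in decile 2 and 6.51 in decile 4 (exact permutation p = 0.0286 each, adjusted p = 0.0571) and 3.32 in decile 3 (exact permutation p = 0.171). With ZT22, where replicate 8 has no library, left out of every series, the difference was 4.68 points (exact permutation p = 0.0857), and without wild-type replicate 26 it was 4.59 (exact p = 0.0571). The exact p of decile 4 was also 0.0571 without any 1 wild-type series (5.87 to 7.01 points).

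Position by position, limma called 260 bp of the members' 9000 bp lower in the light in wild type, 90 bp in decile 2, 40 bp in decile 3 and 130 bp in decile 4, and 0 bp higher. All of it lay within 80 bp of the middle, where the largest log2 differences were -0.20, -0.18 and -0.20 for the 3 deciles in order (adjusted p = 0.0144, 0.0313 and 0.0107). Of all positions 1.93% were called lower. In Bmal1-/- the limma width was 0 bp, beside 160 bp with p under 0.05 before adjustment and 0% of all positions called. The wild-type width fell to 10 bp without replicate 11, 20 bp without replicate 12 and 0 bp without replicate 26 or 27, and it was 40 bp without division by the flank.

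**Figure D4:**
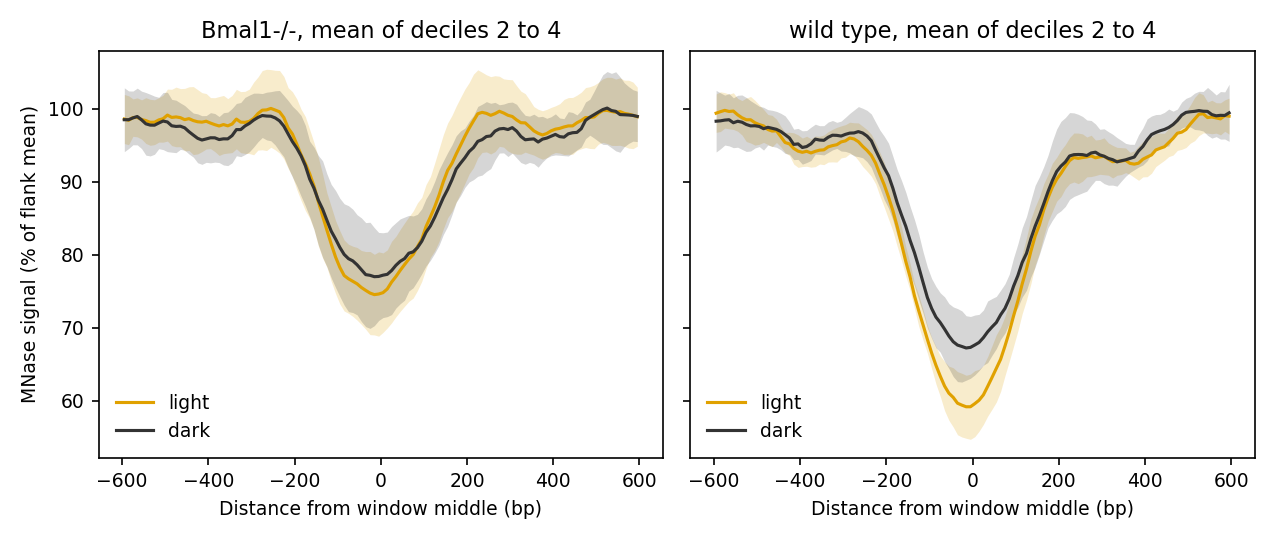
MNase signal of the mean of deciles 2 to 4 in percent of the flank mean (y axis) by distance from the window middle in bp (x axis), with Bmal1-/- on the left and wild type on the right; lines are means of mice in light and dark and bands 1 SD. In wild type the trough reaches 59.2% in the light and 67.2% in the dark, and in Bmal1-/- 74.5% and 76.97% with overlapping bands.

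The members were then set against the other stretches of the list within each series. Members lay above decile 1 in relative central signal, by 2.85 ± 1.97 points in Bmal1-/- and 4.55 ± 1.56 in wild type, with this order in 4 of 4 series of each genotype (SD, n = 4 series). They lay above deciles 5 to 7 by 4.12 ± 1.31 points in Bmal1-/- and 1.27 ± 0.888 in wild type, again in 4 of 4 series. Against deciles 8 to 10 they were 1.85 ± 1.24 points higher in Bmal1-/- (4 of 4 series) and differed by -0.636 ± 1.98 in wild type (higher in 2 of 4 series).

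The genotype difference of the members exceeded that of deciles 5 to 7 by 2.85 points (exact permutation p = 0.0286), which did not pass adjustment over the 3 stretches (adjusted p = 0.0857). It exceeded that of deciles 8 to 10 by 2.49 points (exact permutation p = 0.114), and it differed from that of decile 1 by -1.701 points (exact permutation p = 0.257). The genotype difference was thus not shown to be particular to the members.

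The wild-type change from dark to light in the members differed from that in decile 1 and in deciles 8 to 10, and was not shown to differ from that in the adjacent deciles 5 to 7. It was 4.43 points smaller in size than in decile 1 (permutation p = 0.00168, adjusted p = 0.00252), since the members stood 6.76 points above decile 1 in the light and 2.34 above it in the dark. It was larger in size than in deciles 8 to 10, with -4.66 points as the members' light minus dark value less theirs (permutation p = 0.00121, adjusted p = 0.00252), since members minus those deciles was -2.97 points in the light and 1.695 in the dark. Against deciles 5 to 7 the value was -1.30 points (permutation p = 0.214), and -0.351 without replicate 26 (permutation p = 0.751). Each of these tests used 12 light and 12 dark mice.

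**Figure D5:**
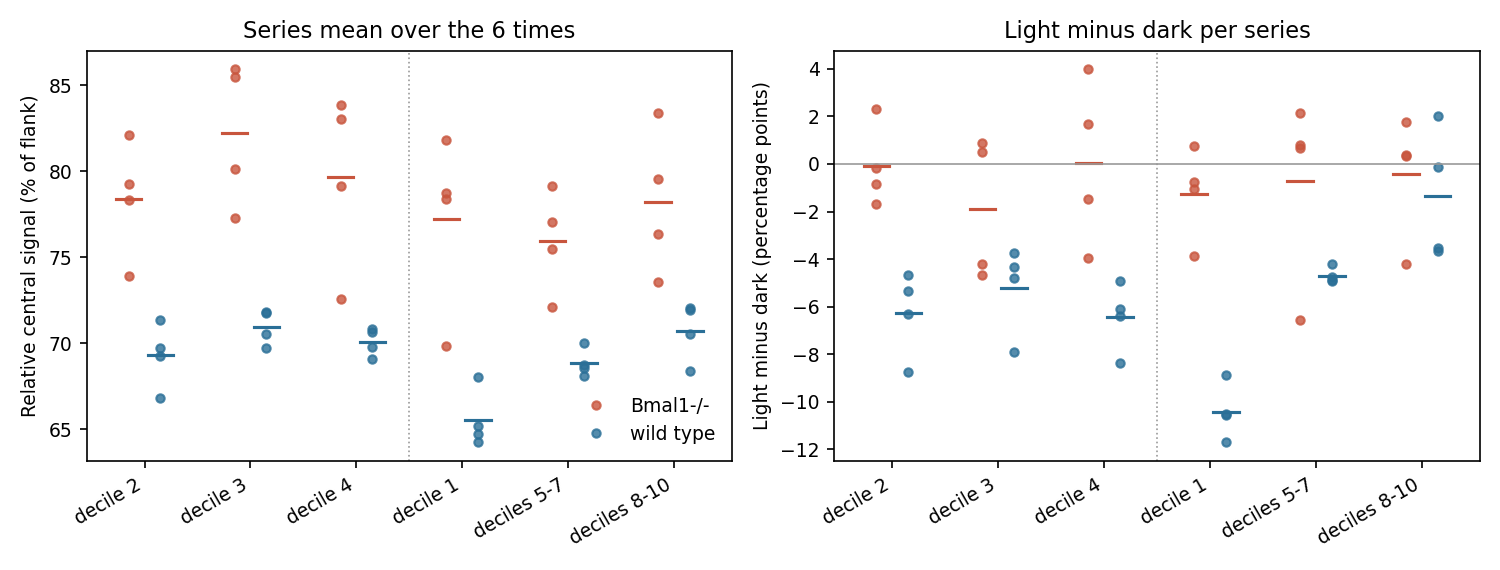
Relative central signal (left, % of flank) and its light minus dark value (right, percentage points) for deciles 2, 3 and 4 and, right of the dotted line, for decile 1, deciles 5 to 7 and deciles 8 to 10. Points are the 4 Bmal1-/- and 4 wild-type series and bars their means; wild-type light minus dark lies near -6 points in the members, at -10.4 in decile 1 and nearer 0 in deciles 8 to 10.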

How the data were processed

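The authors deposited 2 tables, a scaled coverage (signal) averaged over 27 peak sets at 300 positions in 47 libraries, and a list of 3217 peaks in mm9. CASAVA 1.7, Bowtie and mm9 are named in the submitters' processing notes; scaling, fragment length and duplicate handling are not stated there or in the labels. Relative depth came from the smallest peak sets, whose values step by whole fragments (tolerance 0.1 of a step). Set sizes came from least squares. Relative central signal was tested by exact two-sided permutation of 8 series, whose smallest p is 0.0286, by exact permutation of mice at a time, and by permutation of mice with 100000 resamples for light against dark and the harmonic. A p-value here reflects only how mice or series of 1 group vary. limma 3.58.1 (R 4.3.3, eBayes with a trend, threshold 0.05) ran on log2(signal over flank) with no pseudocount; neighbouring positions share fragments, so calls are widths. Analyses ran in Python 3.11.15 with scipy 1.17.1. Peaks named are the first and last members, the rows outside, and the widest and narrowest. Members, sets and tests were chosen with earlier results of these data known. Alternatives covered the centre, the flank, the scaling, low positions, the replicate block and leaving out each replicate. Single peaks, genes and sequences were not analysed here.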

Additional observations from a re-analysis of the deposited data

Results flagged for a closer look

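Light minus dark of relative central signal differed between genotypes by a test of the difference itself in the mean of deciles 2 to 4 (5.38 points, Bmal1-/- minus wild type), in decile 2 (6.17 points) and in decile 4 (6.51 points). The exact two-sided permutation p was 0.0286 in each, the smallest that 8 series allow, and the adjusted p over 28 overlapping sets was 0.0571, so none passed the adjustment. In decile 3 the difference was 3.32 points (exact permutation p = 0.171), and that decile was not tested against the other two. Of 65 groups of mice or series examined for a value far from the rest, 0 had one, where chance gives about 1 in 20.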

How the results depend on the processing

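For 36 results tested as single values, values under other settings were counted, without those that left out a replicate. These results include the split of decile 2 described below, chosen after the data were seen. Of the values, 90.1% kept the direction and the side of the threshold, 4 changed sign and 11 crossed the threshold. The sign changes were all in light minus dark in Bmal1-/-, which did not pass its test under any setting run. Within 250 bp it was 0.0348 points in the mean of the members, 0.495 in decile 2 and 0.175 in decile 4. With the centre within 50 bp, the genotype difference was 12.5 points at ZT14 (now past the threshold) and 8.87 at ZT22 (no longer past it). Within 250 bp, ZT22 gave 5.83, light minus dark between genotypes 4.91 in decile 4, and members against deciles 5 to 7 gave 1.77, all no longer past it. With the flank beyond 750 bp, ZT14 gave 10.8 (past it) and ZT22 7.60 (not). With ZT22 left out, chosen after seeing the data, light minus dark between genotypes was 4.68 in the mean, 4.90 in decile 2 and 5.93 in decile 4 (not past it), and members against deciles 8 to 10 gave 2.82 (past it). The causes were not tested.

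The limma width for genotype was 0 bp on the deposited scale, 1550 bp with 47 mice as independent (30 bp of it lower) and 1130 bp with replicate numbers as a block. Without the 25% of positions of lowest signal, which hold all 900 bp of the members' centres, both widths were 0 bp. The wild-type light width was 40 bp on the deposited scale.

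Leaving out 1 replicate at a time gave, for genotype, 8.68 to 11.8 points in the mean, 7.87 to 10.6 in decile 2, 10.01 to 12.9 in decile 3, 8.17 to 11.9 in decile 4 and 7.07 to 10.1 in decile 2 without its first 78 peaks. By time it gave 11.5 to 15.6 at ZT02, 8.502 to 12.7 at ZT14, 2.54 to 8.12 at ZT18 and 5.09 to 9.21 at ZT22. Light minus dark between genotypes ran from 4.59 to 6.04 in the mean and from 5.20 to 7.85 in decile 4. The light minus dark value of decile 4 in Bmal1-/- ran from -2.15 to 0.630, positive without replicate 10. The genotype difference of members against other stretches gave -2.33 to -0.899 for decile 1, 2.40 to 3.40 for deciles 5 to 7 and 1.72 to 3.25 for deciles 8 to 10. Deposited central signal gave 0.475 to 0.755, the genotype width 180 to 1300 bp and the wild-type light width 0 to 350 bp. Wild-type light minus dark in the mean of the members stayed at -6.31 to -5.21 points (permutation p = 0.00025 to 0.00316). With 1 replicate left out, the genotype difference in the mean kept its call in 4 of 8 values. By time it kept the call in 1 of 8 at ZT22, 4 of 8 at ZT02, 7 of 8 at ZT14 and ZT18, and 8 of 8 at ZT06 and ZT10.

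The replicate numbers were not taken as pairing the mice in the main tests of light against dark. Profile deviations of same-numbered mice correlated over 0.1 in 38 of 55 pairs in Bmal1-/- and 31 of 60 in wild type. Central values correlated over 0.1 in 10 of 10 pairs of times in Bmal1-/- (median correlation 0.826) and 6 of 15 in wild type (median -0.125). Permuting Bmal1-/- mice thus treats as independent mice whose values ran together by series. Permuted within series, light minus dark of the members in Bmal1-/- was -0.617 points (permutation p = 0.728). With a replicate block, 16 of 17 single values kept direction and call (wild-type light minus dark -5.99, permutation p = 0.00035), light minus dark of decile 4 in Bmal1-/- was 0.0620 (permutation p = 0.976), and the wild-type light width was 470 bp. The counting error of a library was at most 1.17%, and the part of depth in the results was not tested.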

Other observations

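Decile 2 was divided by assuming that a deposited set of 400 top peaks holds decile 1 and the first 78 peaks of decile 2. Subtraction gave profiles for these 78 peaks and for the rest of the decile, and 0 of 14100 values fell below 0. That check could hardly fail, since mean signal lies well above 0, so it does not show which peaks the set holds. The split was chosen after the data were seen. The first 78 peaks had a relative central signal of 75.4% ± 2.25 in Bmal1-/- and 64.1% ± 2.51 in wild type (SD, n = 4 series each), a difference of 11.3 points (exact permutation p = 0.0286). The rest had 79.4% ± 3.82 in Bmal1-/- and 70.98% ± 1.84 in wild type, a difference of 8.41 points (exact permutation p = 0.0286; 7.57 to 9.03 and p = 0.0571 without any 1 wild-type series). In wild type, light minus dark was -2.41 points in the first 78 peaks (62.9% ± 5.69 in light and 65.3% ± 4.79 in dark, permutation p = 0.271) and -7.54 points in the rest (67.2% ± 5.11 in light and 74.7% ± 4.13 in dark, SD over 12 mice in each, permutation p = 0.00094). These values differed by -5.13 points between the rest and the 78 peaks (permutation p = 0.0145, not adjusted). In decile 1 the wild-type light minus dark value was -10.4 points. Whether this change falls steadily along the list was not tested.

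Signal beside the trough, from 150 to 450 bp on both sides, was 94.6%, 93.1%, 99.3% and 98.8% of the flank in the Bmal1-/- series and 91.6%, 91.6%, 94.7% and 94.2% in the wild-type series, a measure also chosen after the profiles were seen. The values of the genotypes overlapped, and the difference of 3.45 points missed the threshold (exact permutation p = 0.143). In wild type this signal differed by -1.29 points between light and dark (permutation p = 0.160).

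Bmal1-/- replicate 8 was below the mean of its group at all 5 of its times, on average by -5.48 points, while replicate 9 was above it at 5 of 6 times.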
